A study of Mus musculus with 7 samples.

Results

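The genes described here stayed near the level of living mice in satellite cells taken 2 days after death and were higher in cells taken 4 days after death, and they are called late genes. They were chosen from their measured values. A gene was taken when its mean log2 level on the D2PM arrays lay within 0.25 of its mean on the old arrays, and its mean on the D4PM arrays lay at least 0.4 above the D2PM mean. Of 9944 genes tested, 70 met both thresholds, and 68 remained after the chemokine gene Ccl7 and the membrane protein gene Ms4a4d, which were left out by name, had been set aside. All 3 group means entered the choice, so the levels and differences of these 68 genes are a description and carry no test.

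Satellite cells, the stem cells of skeletal muscle, were sorted by FACS on the nuclear GFP that Tg:Pax7-nGFP mice make under the control of Pax7, and all 7 samples carried this transgene. The arrays held cells from living mice (old, n = 2), from mice 2 days post mortem (D2PM, n = 2) and from mice 4 days post mortem (D4PM, n = 3). By the sample labels and the methods the living mice were 24 to 26 months of age, although the series title speaks of young adults and the design text counts their age in weeks. The paper compared its post-mortem cells with quiescent cells of young mice, so the age of the living mice is not settled. The name old follows the labels. The post-mortem mice were of an age that the paper counts in weeks. By the labels, age and death therefore cannot be told apart in any comparison with the old arrays. The step from D2PM to D4PM lies within post-mortem mice. RNA was amplified and hybridised to the Affymetrix Mouse Gene 1.0 ST array, and levels are log2 values normalised by RMA, which carry no detection call and compress changes near the floor of the array. Whether replicate arrays hold cells of different mice is not stated, and any p-value therefore measures the spread between arrays alone. A higher level in a sorted population can come from more RNA per cell or from more cells that express the gene, and these cannot be told apart here.

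Satellite cells are quiescent in resting muscle and remain viable in muscle after the death of the animal. Cells that sense damage or foreign nucleic acid make type I interferon, which induces a broad set of antiviral genes through STAT transcription factors, the interferon-stimulated response element (ISRE) and the gamma-activated site (GAS). A separate regulatory loop, the circadian clock, runs in most cells: CLOCK and ARNTL drive the Per and Cry genes, whose products repress them, and pass the rhythm on to output factors such as TEF and DBP.

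The 68 genes had a median difference between D4PM and D2PM of 0.49 on the log2 scale, with a range of 0.40 to 1.60. Their median difference between D4PM and old was 0.54, and the smallest was 0.19 (Tas2r135) and the largest 1.78 (Nhlh1). Over all 9944 genes the median D4PM minus D2PM was -0.03. A difference of at least 0.4 between D4PM and D2PM was found for 200 genes, or 2.01% of those tested. Of these, 73 were already over 0.25 higher at D2PM than in old cells, among them Tnf and Ifit3, and had a median D4PM minus old of 1.41. A further 57 were over 0.25 lower at D2PM than in old cells, and their median D4PM minus old was 0.01, so that at D4PM they stood near the level of living mice. The late genes were the ones that were flat to day 2, and 83 genes formed their mirror image, being equally flat to D2PM and at least 0.4 lower at D4PM. Both thresholds together were met by 0.704% of all genes.

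**Figure D1:**
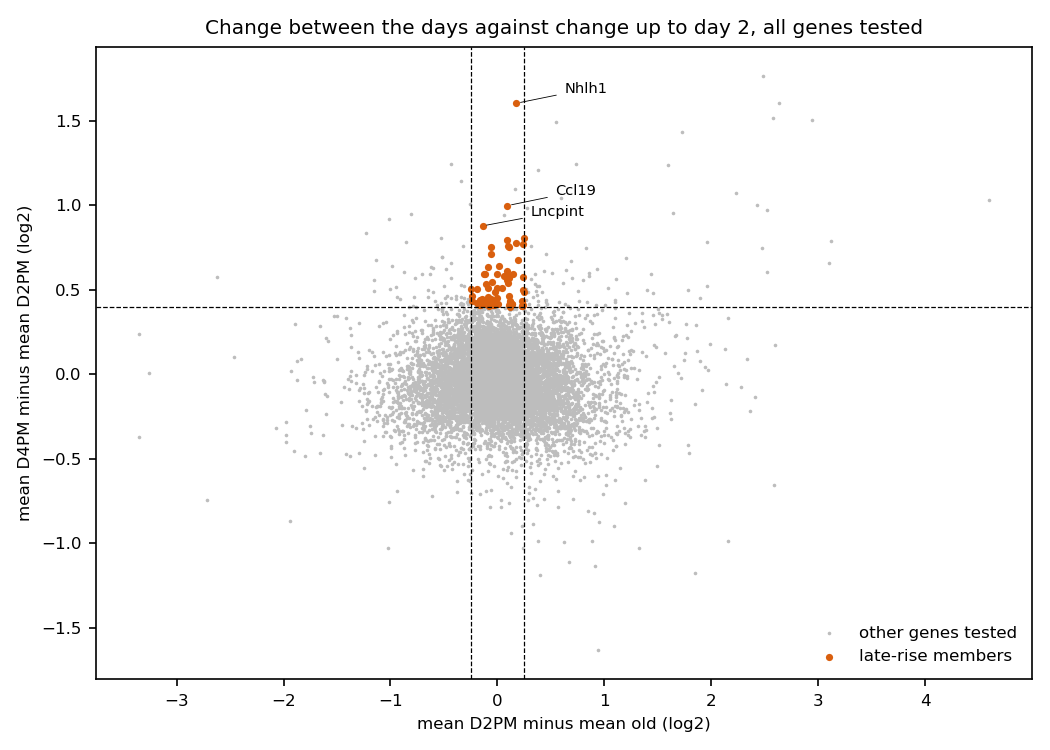
Difference of group means between D4PM and D2PM (y axis, log2) against that between D2PM and old (x axis, log2) for the 9944 genes tested, with the 68 late-rise genes in orange and dashed lines at the thresholds of 0.25 and 0.4. The late-rise genes fill the strip above the centre of the cloud, and Nhlh1 lies highest in it at 1.60.

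The edges of the choice cut through a continuous cloud. Leng9 and Prkch lay just inside the upper threshold with a D4PM minus D2PM of 0.40 each, and Tescl and Npr1 lay just outside it at 0.3986 and 0.3968. On the axis of flatness Erg had a D2PM minus old of 0.25 and Pnp of -0.25, both just inside, while Rrm2b at 0.2519 and Hs6st3 at -0.26 were just outside.

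Genes of the choice were dimmer and more variable than all genes tested. Their median level over the 7 arrays was 6.40, against 6.95 for all genes, and 27 of the 68 (39.7%) had a mean less than 1 log2 unit above the minimum of 5.12, against 2648 of all genes (26.6%). The median SD over the 3 D4PM arrays was 0.28 for the 68 genes and 0.14 for all genes. A wide spread was not particular to the late genes. The median SD was 0.33 for the 73 genes already higher at D2PM and 0.25 for the 57 lower there. It was also 0.25 for the 83 genes that were flat to D2PM and lower at D4PM. For Nhlh1, Spata4, Ctla2b, Tmem114 and Slc25a2 the mean of the 4 other arrays was below the minimum, so that only the D4PM arrays brought them over it. Protein-coding genes made up 57 of the 68 (83.8%), against 95.4% of all genes, and the others were 4 long non-coding RNAs, 3 RNase P RNAs, 2 microRNA genes, 1 small nucleolar RNA and the transcribed pseudogene H2-Q5.

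Every D4PM array lay above every D2PM and old array for 40 of the 68 genes, where 4.75% of all genes did so. Another 7 genes, among them Pnp, Mill2 and Slc43a1, cleared the D2PM arrays but not both old arrays, which gives 47 above every D2PM array, where 9.69% of all genes were. For the other 21 at least 1 D4PM array was at or below a D2PM array. In the fit across all genes limma called 2 of the 68 higher at D4PM than at D2PM (Nhlh1 and Lncpint, adjusted p under 0.05), against a background of 0.161% of all genes, and 32 higher at D4PM than in old cells, against 12.4%. Since the choice used both contrasts, nothing is read from these counts.

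**Figure D2:**
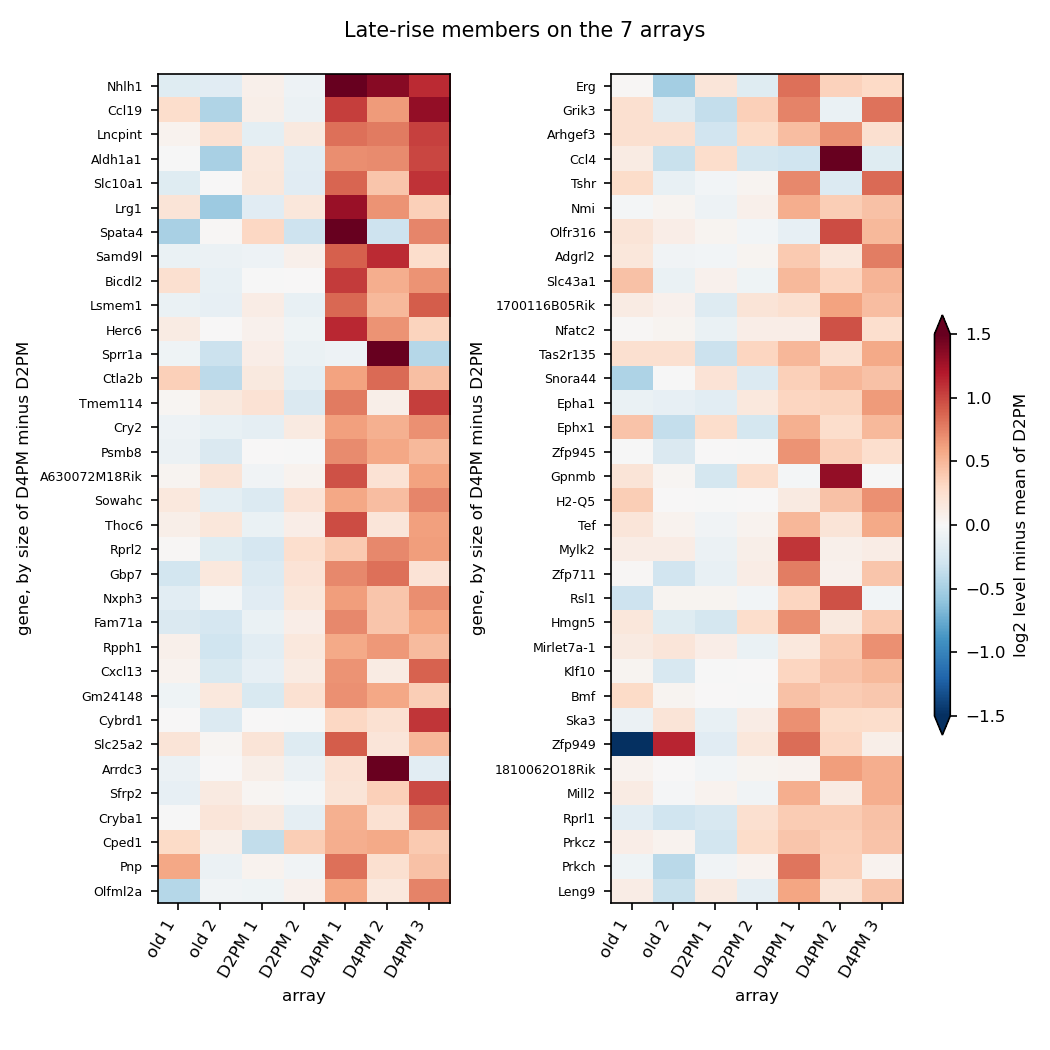
Level of each of the 68 genes on each of the 7 arrays (columns) as the difference from the gene's own D2PM mean (log2, red above and blue below, colours held at the ends of the bar), with genes ordered by D4PM minus D2PM. The D4PM columns are red from top to bottom with gaps that differ between the 3 arrays, and Zfp949 shows 2 old arrays that lie far apart.

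Among the late genes 7 belong to the interferon response or to antigen presentation. Samd9l, an interferon-inducible antiviral protein, measured 6.42 and 6.44 in old cells, 6.45 and 6.60 at D2PM and 7.42, 7.64 and 6.78 at D4PM. All 3 D4PM arrays stood above the other 4, with D4PM 3 the lowest of them, and the difference between D4PM and D2PM was 0.76 (1.69-fold). Herc6, the main ligase that joins the ubiquitin-like protein ISG15 to its targets in mouse, had 5.95 and 5.83 in old cells, 5.89 and 5.77 at D2PM and 6.95, 6.51 and 6.16 at D4PM. Its D4PM arrays again cleared the rest with D4PM 3 lowest, and the difference between D4PM and D2PM was 0.71.

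Psmb8, a catalytic subunit of the immunoproteasome that cuts peptides for MHC class I, measured 6.54 and 6.41 in old cells, 6.63 and 6.61 at D2PM and 7.33, 7.20 and 7.11 at D4PM. The 3 D4PM arrays lay close together and 0.48 or more above every other array, and the D4PM mean was 0.59 above the D2PM mean. Nmi, a STAT-interacting protein induced by interferon, was as even, with 7.30 and 7.37 in old cells, 7.25 and 7.41 at D2PM and 7.87, 7.70 and 7.77 at D4PM. Gbp7, a guanylate-binding GTPase, measured 6.15 and 6.59 in old cells, 6.23 and 6.63 at D2PM and 7.14, 7.26 and 6.63 at D4PM. Here D4PM 3 had the same value as the higher D2PM array, with a gap of 0, and only the other D4PM arrays stood clear. H2-Q5 and the MHC class I-like gene Mill2 were 0.42 and 0.41 higher at D4PM than at D2PM, and in both an old array was at or above the lowest D4PM array.

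The windows around the transcription starts of Gbp7 and Psmb8 are shown because these genes hold the letters of interferon-response elements. They are RefSeq sequences of build GRCm38.p6, 250 bases before to 50 after the start, from chr3:142530086-142530385 (plus strand) and chr17:34197945-34198244 (plus strand). Capitals mark the ISRE core (GAAA and GAAA with 2 bases of any kind between them), here on the opposite strand, and the GAS motif TTCNNNGAA, which reads the same on both strands.
Gbp7: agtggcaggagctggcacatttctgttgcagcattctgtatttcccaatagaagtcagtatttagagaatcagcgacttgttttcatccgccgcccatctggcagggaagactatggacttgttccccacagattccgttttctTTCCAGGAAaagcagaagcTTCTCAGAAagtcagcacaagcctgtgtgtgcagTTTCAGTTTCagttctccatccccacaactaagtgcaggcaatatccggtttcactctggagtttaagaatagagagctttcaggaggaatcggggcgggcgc
Psmb8: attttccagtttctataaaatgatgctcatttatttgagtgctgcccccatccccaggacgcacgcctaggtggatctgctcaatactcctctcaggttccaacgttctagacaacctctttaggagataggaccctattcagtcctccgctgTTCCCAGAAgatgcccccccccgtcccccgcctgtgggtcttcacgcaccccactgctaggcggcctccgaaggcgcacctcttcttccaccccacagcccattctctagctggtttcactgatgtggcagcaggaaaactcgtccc
Windows were found for 52 of the 68 genes, 67 in all since some genes have several starts. The ISRE core was present in 3 of these 67 windows (4.48%; Gbp7, Ccl19 and 1700116B05Rik) and in 2.81% of the 9951 windows of all genes tested. The GAS motif was present in 9 windows (13.4%) and in 6.67% of all windows. Besides Gbp7 and Psmb8 its holders were Adgrl2, Fam71a, Hmgn5, Olfml2a, Rsl1, Slc10a1 and Zfp945, which are outside the interferon and antigen presentation group. Within that group only Gbp7 and Psmb8 were found with either motif, and Nmi and Mill2 had windows with neither. A match of letters is a description of the window and not evidence of binding.

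None of the 7 is among the 30 tested genes of the interferon list, which holds the classical antiviral genes. Of those 30, 29 had a D4PM minus D2PM above 0, with a median of 0.41, and limma called 6 of them higher at D4PM than at D2PM (Ifit1, Ifit2, Ifit3, Ifit3b, Mx2 and Oasl2). By the flatness used for the late genes, 7 of the 30 were flat to D2PM, 14 were higher there than in old cells by over 0.25 and 9 were lower. Ifit1, which binds foreign RNA, had 5.94 and 5.71 in old cells, 10.44 and 10.41 at D2PM and 11.56, 11.48 and 11.32 at D4PM. Its D2PM minus old was thus 4.60, against 0.09 for Samd9l, while D4PM minus D2PM was 1.03 for Ifit1 and 0.76 for Samd9l. At the other end Irgm1, an interferon-inducible GTPase, was 1.14 below old cells at D2PM and 0.68 above D2PM at D4PM. A list of 12 tested genes of antigen processing, written after the values were seen, had all 12 above 0 between D4PM and D2PM with a median of 0.21, and limma called 0 of them at this contrast (4 at an unadjusted p under 0.05). Psmb8, H2-Q5 and Mill2 are on this list and were chosen for that difference, so its counts and median follow in part from the choice. The list sets Psmb8 beside its partner subunits: Psmb9 and Psmb10 were already 0.80 and 0.59 higher at D2PM than in old cells, while Psmb8 was 0.15 higher.

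Chemokines, the secreted proteins that attract leukocytes, gave 3 late genes. Ccl19, a ligand of the receptor Ccr7, measured 9.85 and 9.13 in old cells, 9.67 and 9.50 at D2PM and 10.62, 10.22 and 10.91 at D4PM. The D4PM arrays cleared all others, and D4PM minus D2PM was 1.00. The 4 other probe sets assigned to Ccl19 gave 1.00 to 1.01 and share its accession, so they are not independent of it and may collect signal from near-identical copies of this gene. Cxcl13, which attracts B cells, had 5.26 and 4.99 in old cells, 5.09 and 5.34 at D2PM and 5.88, 5.34 and 6.10 at D4PM, close to the floor, and D4PM 2 was level with the higher D2PM array. Ccl4, an inflammatory chemokine, is described below with the genes that were high on a single array. A separate list of 22 tested cytokine and chemokine genes does not hold Ccl19 or Cxcl13, and Ccl4 was its only late gene. It had 19 genes above 0 between D4PM and D2PM, with a median of 0.26 and 2 called higher. Those called were Tnf and Cxcl10, which were already 2.48 and 3.12 higher at D2PM than in old cells.

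Transcriptional regulators formed a group of 11, led by Nhlh1, a basic helix-loop-helix factor of developing neurons. It measured 4.36 and 4.37 in old cells, 4.62 and 4.47 at D2PM and 6.87, 5.91 and 5.66 at D4PM. No late gene had a greater difference between D4PM and D2PM (1.60, 3.04-fold) or a greater gap between its lowest D4PM array and its highest other array (1.04). The old and D2PM arrays were below the minimum level, where RMA compresses folds. Klf10, an immediate early Krüppel-like factor first described as TGF-beta inducible, had 7.13 and 6.85 in old cells, 7.08 and 7.11 at D2PM and 7.42, 7.52 and 7.58 at D4PM. All D4PM arrays were above the others within a narrow band, with a D4PM minus D2PM of 0.41. Klf10 was the only late gene among 32 tested immediate early genes, of which 28 were above 0 between D4PM and D2PM (median 0.22), and limma called 0 (4 at an unadjusted p under 0.05).

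Erg, an ETS factor of endothelial cells, measured 6.39 and 5.86 in old cells, 6.56 and 6.19 at D2PM and 7.20, 6.72 and 6.67 at D4PM. The D4PM arrays lay above the rest, D4PM 1 by the most, and the difference between D4PM and D2PM was 0.49. It is one of the endothelial markers, whose array means are given with those of other cell types. Nfatc2, the calcineurin-dependent factor, was high on D4PM 2 (9.37) and at 8.52 and 8.68 on the other D4PM arrays, against 8.32 and 8.52 at D2PM. The zinc finger genes Zfp945, Zfp711, Zfp949 and Rsl1 and the nucleosome-binding Hmgn5 had differences of 0.41 to 0.43. Zfp949 met the rule only through averaging, since its old arrays stood at 4.69 and 7.46, on either side of every other array.

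**Figure D3:**
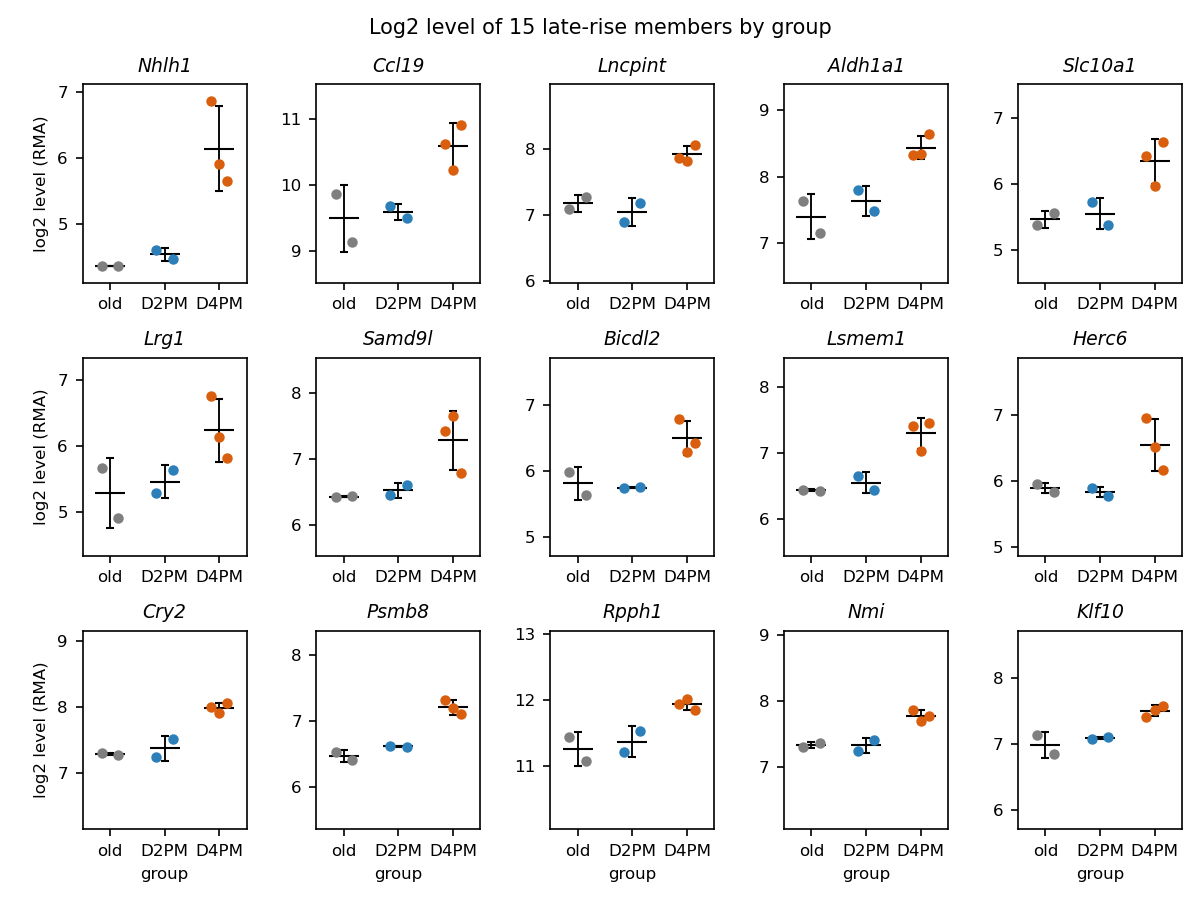
Log2 level of 15 late-rise genes on each array (points), with the mean and SD of each group (bars; old n = 2, D2PM n = 2, D4PM n = 3). All 15 belong to the 40 of 68 genes whose D4PM arrays all lie above every old and D2PM array. Every panel therefore shows this separation. Genes with overlap are not drawn, such as Spata4 and Sprr1a, which had a larger rise than some of those shown.

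The clock gave 2 late genes. Cry2, a repressor of CLOCK and ARNTL, measured 7.30 and 7.27 in old cells, 7.24 and 7.51 at D2PM and 7.99, 7.91 and 8.06 at D4PM. Its D4PM arrays had an SD of 0.07 and cleared the highest other array by 0.40, and D4PM minus D2PM was 0.61. Tef, an output factor that binds D-box sequences, had 7.22 and 7.10 in old cells, 6.99 and 7.09 at D2PM and 7.54, 7.23 and 7.62 at D4PM, with D4PM 2 only just above an old array and a D4PM minus D2PM of 0.42. The other 18 tested clock genes had no common course: the list of 20 had 12 genes above 0 between D4PM and D2PM, with a median of 0.12, and limma called 0 (5 higher and 2 lower at an unadjusted p under 0.05). The activators Arntl, Npas2 and Clock had differences of -0.51, -0.34 and -0.25, and the second cryptochrome, Cry1, of -0.38. Nr1d1 and Nr1d2, the REV-ERB repressors, had 0.56 and 0.46, but from a D2PM level 1.16 and 0.48 below old cells. Per1, Per2 and Per3 had 0.14, 0.21 and 0.17, and Dbp had 0.26.

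Both annotated start windows of Tef are shown because each holds the E-box CACGTG that CLOCK and ARNTL bind, marked by capitals. They are RefSeq sequences of GRCm38.p6 from the plus strand at chr15:81802423-81802722 and chr15:81811164-81811463, and the motif reads the same on both strands.
Tef upstream start: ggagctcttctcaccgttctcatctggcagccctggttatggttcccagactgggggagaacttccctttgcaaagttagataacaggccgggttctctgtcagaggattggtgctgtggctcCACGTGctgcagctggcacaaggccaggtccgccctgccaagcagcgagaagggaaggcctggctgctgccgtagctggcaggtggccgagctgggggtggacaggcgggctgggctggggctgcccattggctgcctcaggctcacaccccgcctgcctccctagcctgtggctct
Tef downstream start: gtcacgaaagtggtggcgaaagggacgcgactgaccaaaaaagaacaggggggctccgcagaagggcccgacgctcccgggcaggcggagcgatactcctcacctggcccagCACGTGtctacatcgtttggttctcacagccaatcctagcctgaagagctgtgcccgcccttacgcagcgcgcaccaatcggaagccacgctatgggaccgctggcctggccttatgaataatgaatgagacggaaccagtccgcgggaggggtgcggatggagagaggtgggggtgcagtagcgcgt
Of the 67 windows of late genes 6 held the E-box (8.96%), and so did 995 of the 9951 windows of all genes. The D-box TTATGTAA was in 0 of the 67 windows and in 0.523% of all.

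**Figure D4:**
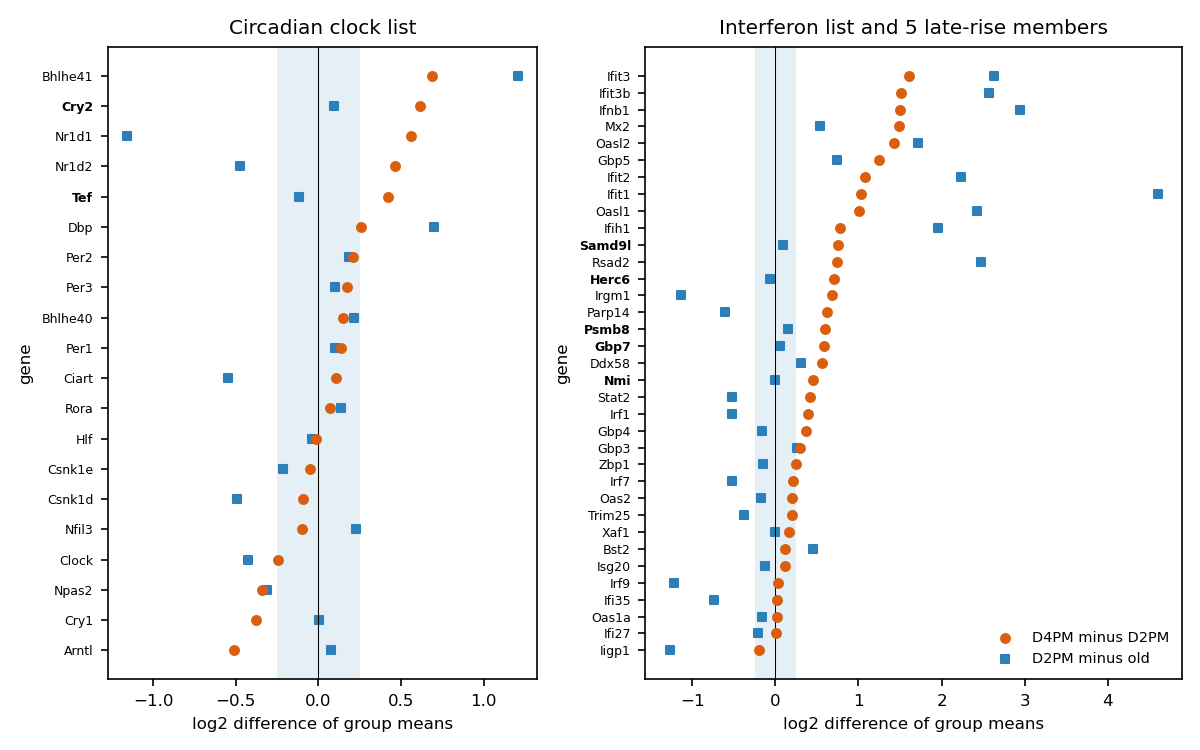
Differences of group means, D4PM minus D2PM (orange circles) and D2PM minus old (blue squares), on a log2 axis for the 20 tested clock genes (left) and for the 30 tested interferon genes with 5 late-rise genes added (right). Late-rise genes are in bold, the shaded band spans 0.25 on either side of 0, and the strongly induced Ifit genes have their squares far to the right of it, whereas Samd9l, Herc6, Psmb8, Gbp7 and Nmi have them inside it.

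Secreted proteins other than chemokines numbered 4. In all 4 every D4PM array was above every other array, against 40 of the 68 late genes and 4.75% of all genes tested. Lrg1, a secreted glycoprotein that alters TGF-beta signalling in vessels, had 5.66 and 4.91 in old cells, 5.28 and 5.63 at D2PM and 6.75, 6.14 and 5.81 at D4PM. D4PM 1 was the highest array and D4PM 3 came within 0.16 of an old array, with a D4PM minus D2PM of 0.78. Sfrp2, a secreted modulator of Wnt signalling, measured 6.73 and 6.99 in old cells, 6.88 and 6.82 at D2PM and 7.05, 7.21 and 7.84 at D4PM. Most of its difference of 0.51 came from D4PM 3. It was the only late gene of 17 tested Wnt pathway genes, which had a median D4PM minus D2PM of 0.07. Nxph3, a ligand of neurexins, and Olfml2a, an olfactomedin-like extracellular protein, had differences of 0.58 and 0.50.

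Receptors, of which there were 6, had the smallest range of differences, 0.43 to 0.48. Epha1, an ephrin receptor, was the only one whose D4PM arrays all cleared the others, with 5.77 and 5.74 in old cells, 5.71 and 6.03 at D2PM and 6.19, 6.20 and 6.51 at D4PM. Tshr, the thyrotropin receptor, had 7.32 and 6.94 in old cells, 7.01 and 7.09 at D2PM and 7.77, 6.84 and 7.90 at D4PM. The D4PM arrays thus split, with D4PM 2 lowest of all 7 arrays. Grik3, a kainate receptor subunit, split in the same way at 6.36, 5.51 and 6.42, against 5.25 and 5.97 at D2PM. Olfr316 and Tas2r135, an odorant and a bitter taste receptor, lay within 1 log2 unit of the minimum level, where 2 of 23 tested chemosensory receptor genes were late genes. Adgrl2, a latrophilin, differed by 0.44 at its brightest probe set, while its 6 other probe sets, which lay at 4.46 to 5.89, gave -0.37 to 0.04.

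Enzymes and transporters numbered 7. Aldh1a1, which makes retinoic acid from retinal, measured 7.63 and 7.15 in old cells, 7.80 and 7.47 at D2PM and 8.33, 8.34 and 8.64 at D4PM. All D4PM arrays lay at least 0.53 above the rest, and the difference between D4PM and D2PM was 0.80 (1.74-fold). Slc10a1, known as the bile acid transporter of liver, had 5.38 and 5.56 in old cells, 5.72 and 5.38 at D2PM and 6.43, 5.97 and 6.64 at D4PM, also without overlap. Cybrd1, a ferric reductase of iron uptake, was high on D4PM 3 (6.75) and at 6.0 and 5.92 on the other D4PM arrays, against 5.68 on each D2PM array. Pnp, which splits purine nucleosides, had 9.80 and 9.13 in old cells, 9.27 and 9.17 at D2PM and 10.04, 9.46 and 9.66 at D4PM. One old array was therefore higher than 2 of the D4PM arrays, and Ephx1, an epoxide hydrolase, also overlapped with a difference of 0.43 between D4PM and D2PM. The mitochondrial carrier Slc25a2 and the amino acid transporter Slc43a1 had differences of 0.53 and 0.44.

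Of 5 kinases and signalling proteins, Prkcz and Prkch, protein kinases C, cleared all other arrays with differences of 0.40 each. Prkch measured 5.23 and 4.89 in old cells, 5.25 and 5.34 at D2PM and 6.09, 5.64 and 5.35 at D4PM. Its D4PM 3 value lay only 0.0055 above the highest other array, and without D4PM 1 the difference was 0.20. Both rest on 1 of 2 probe sets, and the dimmer ones, at 4.25 and 3.34, gave -0.05 and -0.30. Arhgef3, an exchange factor for RhoA, had a difference of 0.46 with overlapping arrays. Mylk2, the myosin light chain kinase of skeletal muscle, was high on D4PM 1 alone at 7.35, against 6.35 and 6.39 on the other D4PM arrays and 6.19 and 6.37 at D2PM. Arrdc3, an arrestin-like protein, was high on D4PM 2 alone.

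Non-coding RNAs were 10 of the 68. In 8 of them every D4PM array was above every other, against 40 of the 68 late genes and 4.75% of all genes tested. Lncpint, a long non-coding RNA induced by p53, measured 7.09 and 7.27 in old cells, 6.89 and 7.19 at D2PM and 7.87, 7.82 and 8.06 at D4PM. Its lowest D4PM array stood 0.55 above its highest other array, and D4PM minus D2PM was 0.88 (1.84-fold). Rpph1, the RNA of RNase P, which trims the leader from transfer RNA precursors, had 11.44 and 11.08 in old cells, 11.21 and 11.54 at D2PM and 11.95, 12.02 and 11.85 at D4PM. The D4PM arrays cleared the others, with a D4PM minus D2PM of 0.57. The RNase P-like genes Rprl2 and Rprl1 differed by 0.58 and 0.40 with no overlap, but their sequences resemble Rpph1, and the probe sets may share its signal. On a list of 6 tested RNA polymerase III transcripts, written after the values were seen, all 6 were above 0 between D4PM and D2PM with a median of 0.45, and limma called 0 (4 at an unadjusted p under 0.05). Rpph1, Rprl1 and Rprl2 are on this list and were chosen for that difference, so its counts and median follow in part from the choice. Rmrp and Rny3 of that list were not late genes, since they were already 1.67 and 1.78 higher at D2PM than in old cells. Snora44, a small nucleolar RNA, had a difference of 0.43 and A630072M18Rik, 1700116B05Rik and 1810062O18Rik of 0.59, 0.44 and 0.41.

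The 2 microRNA genes are shown by their mature sequences, with the seed (bases 2 to 8) in capitals, to show that they do not share one. The sequences are those of RefSeq on GRCm38.p6, from the minus strand of chr13:48538239-48538260 (let-7a-5p), chr13:48538188-48538209 (let-7a-1-3p) and chr1:86352062-86352087 (miR-3535, the product of Gm24148).
mmu-let-7a-5p: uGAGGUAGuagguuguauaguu
mmu-let-7a-1-3p: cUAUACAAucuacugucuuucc
mmu-miR-3535: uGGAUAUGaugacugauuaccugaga
Gm24148 had 6.39 and 6.61 in old cells, 6.22 and 6.67 at D2PM and 7.13, 7.03 and 6.82 at D4PM, with no overlap. Mirlet7a-1, a let-7 gene, had 5.65 and 5.70 in old cells, 5.61 and 5.40 at D2PM and 5.66, 5.90 and 6.19 at D4PM, and its lowest D4PM array fell between the old arrays. The array measures the precursor region of such genes and not the mature RNA alone. By symbol, 95 tested genes were microRNA genes, with a median D4PM minus D2PM of 0.09, and Mirlet7a-1 was the only late gene among them.

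The remaining 15 genes encode proteins of mixed function. The D4PM arrays cleared every other array in 11 of them, against 40 of the 68 late genes and 4.75% of all genes tested. Bicdl2, an adaptor of dynein transport, had 5.99 and 5.64 in old cells, 5.74 and 5.75 at D2PM and 6.79, 6.29 and 6.42 at D4PM, with a difference between D4PM and D2PM of 0.75. It overlaps its neighbour on chromosome 17, the mRNA export factor gene Thoc6, by 4 bases in the annotation. Thoc6 differed by 0.59, and whether the probe sets of these genes share signal was not tested. Lsmem1, a single-pass membrane protein, measured 6.45 and 6.43 in old cells, 6.66 and 6.44 at D2PM and 7.41, 7.04 and 7.46 at D4PM, without overlap and with a difference of 0.75. Bmf, a BH3-only protein that promotes apoptosis, had 5.88 and 5.64 in old cells, 5.59 and 5.59 at D2PM and 6.03, 5.97 and 6.0 at D4PM. Its D4PM arrays were the most even of all late genes to 2 decimals, together with Rprl1 (SD 0.03 each), and one old array came within 0.09 of them. Bmf was the only late gene of 26 tested apoptosis and necroptosis genes, of which 14 were above 0 between D4PM and D2PM.

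Of the others, Sowahc, an ankyrin repeat protein, Fam71a and Ctla2b, a gene related to cathepsin propeptides, had differences of 0.59, 0.57 and 0.64 and were at least 0.4 above the D2PM mean on each D4PM array. The kinetochore gene Ska3, the lens crystallin gene Cryba1, Cped1 and Leng9 differed by 0.41, 0.51, 0.50 and 0.40, all without overlap. The claudin-like gene Tmem114 and the testis gene Spata4 overlapped. Spata4 had 4.59 and 5.08 in old cells, 5.38 and 4.76 at D2PM and 6.97, 4.76 and 5.80 at D4PM, so that D4PM 2 equalled the lower D2PM array while D4PM 1 stood 1.90 above the D2PM mean.

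The D4PM arrays did not share the late rise evenly. The median difference from the D2PM mean over the 68 genes was 0.60 on D4PM 1, 0.40 on D4PM 2 and 0.49 on D4PM 3. A level at least 0.4 above the D2PM mean was reached by 49 genes on D4PM 1, 34 on D4PM 2 and 48 on D4PM 3. All 3 arrays reached it for 14 genes (20.6%): Nhlh1, Ccl19, Lncpint, Aldh1a1, Slc10a1, Bicdl2, Lsmem1, Ctla2b, Cry2, Psmb8, Sowahc, Nxph3, Fam71a and Rpph1. Over all genes tested, 53 did so. For 19 genes a single D4PM array reached it, D4PM 1 for 7 genes, D4PM 2 for 6 and D4PM 3 for 6.

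Among genes carried by a single array, the 4 with the greatest departures were all carried by D4PM 2. Sprr1a, a cornified envelope protein of keratinocytes that injured neurons also make, measured 6.76 and 6.51 in old cells, 6.93 and 6.72 at D2PM and 6.74, 9.36 and 6.40 at D4PM. Ccl4 had 6.42 and 5.97 in old cells, 6.56 and 6.04 at D2PM and 6.0, 8.18 and 6.12 at D4PM. In both genes D4PM 2 stood alone and the other D4PM arrays lay within or below the range of D2PM, so that without D4PM 2 the difference between D4PM and D2PM was -0.25 for each. Arrdc3 (8.77, 10.04 and 8.40 at D4PM, against 8.64 and 8.48 at D2PM) and Gpnmb, a lysosomal glycoprotein of macrophages and pigment cells (6.07, 7.41 and 6.09 at D4PM, against 5.84 and 6.36 at D2PM), had the same shape. Rsl1 and Nfatc2 followed it with smaller excesses. These 6 genes were taken in by their mean and not by a rise shared between arrays.

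The window at the start of Sprr1a, from the minus strand at chr3:92485832-92486131 (RefSeq, GRCm38.p6), is shown because it holds 2 copies of the AP-1 motif TGANTCA and a TATAAA, marked by capitals.
Sprr1a: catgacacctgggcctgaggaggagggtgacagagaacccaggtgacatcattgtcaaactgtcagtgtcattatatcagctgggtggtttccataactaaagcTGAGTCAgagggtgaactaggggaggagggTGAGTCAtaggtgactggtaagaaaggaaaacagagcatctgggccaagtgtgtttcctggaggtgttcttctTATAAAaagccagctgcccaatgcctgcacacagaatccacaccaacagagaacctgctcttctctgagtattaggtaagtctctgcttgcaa
AP-1 letters, counted on both strands, were in 7 of 67 windows of the late genes (10.4%) and in 5.14% of all windows. TATAAA was in 14 windows (20.9%) and in 7.47% of all. It was counted anywhere in the window, at positions from -237 (Psmb8) to 11 (Lrg1) relative to the start. No motif share was compared among genes of like level or windows of like GC. The median window of the late genes held 9 CpG dinucleotides and 53.3% GC, against 20 CpG and 61.0% GC for all tested genes with a window. Dim genes have fewer CpG in general, and among genes within 1 log2 unit of the minimum the medians were 8 for late genes and 16 for all. Among brighter genes they were 10 and 22.

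**Figure D5:**
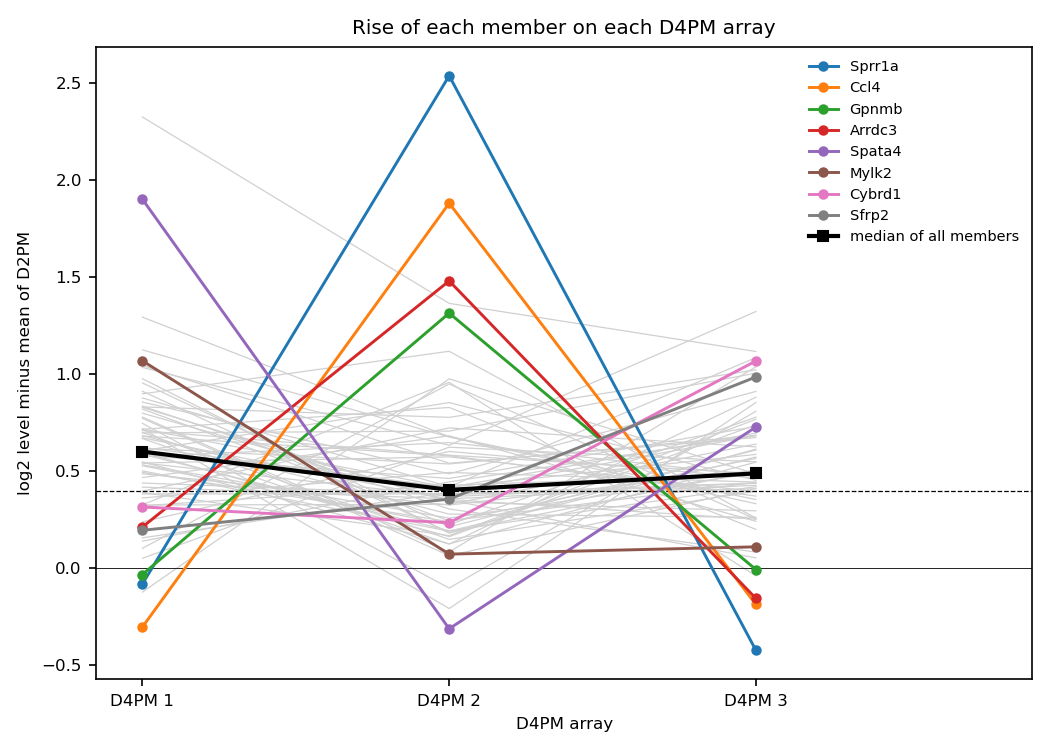
Difference of each late-rise gene from its own D2PM mean (y axis, log2) on the 3 D4PM arrays (x axis), with 8 genes in colour, the other 60 in grey and the median of all 68 in black; the dashed line marks 0.4. Sprr1a, Ccl4, Arrdc3 and Gpnmb peak on D4PM 2, Spata4 and Mylk2 on D4PM 1, and Cybrd1 and Sfrp2 on D4PM 3.

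Each array was left out in turn and both thresholds on differences were applied again. This kept between 33 (without D2PM 1) and 58 (without D4PM 2) of the 68 genes. The filter on level stayed on the mean of all 7 arrays. Whether genes that only the D4PM arrays brought over the minimum, such as Nhlh1, would still pass it was not tested. The genes kept in all 7 sets were Samd9l, Bicdl2, Lsmem1, Herc6, Cry2, Psmb8 and A630072M18Rik. Another 15 were kept in 6 of the 7, among them Nhlh1 and Lncpint, and Ephx1 was kept in 1. The 2 D2PM arrays were at least 0.5 apart for 10 of the late genes, and the old arrays for 8.

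Markers of other cells were measured on the same arrays, by 12 cell type lists. The 15 tested satellite cell markers, Pax7 and Myf5 included, had array means of 9.26 and 9.13 in old cells, 9.24 and 9.34 at D2PM and 9.20 to 9.48 at D4PM, and none of them was a late gene. Of 26 tested endothelial markers 25 were above 0 between D4PM and D2PM, with a median of 0.27, and their array means were 6.72 and 6.03 in old cells, 7.07 and 7.06 at D2PM and 7.53, 7.40 and 7.03 at D4PM. Limma called 0 of them between the days (1 at an unadjusted p under 0.05), but 20 of the 26 higher at D4PM than in old cells, and the same number was over 0.25 higher at D2PM than in old cells. Erg was the one that was a late gene. With this endothelial mean as a covariate, an alternative added after the data were seen, limma called 0 of the 68 genes at either contrast, and 42 had an unadjusted p under 0.05 for D4PM over D2PM and 15 for D4PM over old. In that fit D4PM minus D2PM was above 0 for all 68 genes, with a median of 0.46 against 0.49 without the covariate, and for Nhlh1 it was 1.42 and for Lncpint 0.96. D4PM minus old was above 0 for 57 of them, with a median of 0.38 against 0.54. The rule had chosen the 68 genes on these differences, and Erg is part of the covariate. Neither these values nor the counts of that fit therefore test an endothelial share. Of the 9 tested macrophage markers 4 were above 0, and their array means were 6.19 and 5.60 in old cells, 5.85 and 5.55 at D2PM and 5.83, 5.69 and 5.50 at D4PM. The 5 granulocyte markers averaged 6.81 and 6.01 in old cells, 6.44 and 6.69 at D2PM and 6.98, 5.46 and 6.01 at D4PM. Of the lymphocyte list only Cd22, a B cell receptor, was tested, and limma called it higher at D4PM than at D2PM by 0.92, with a D4PM minus old of -0.10. Limma called 2 of 12 genes of myogenic activation and differentiation lower at D4PM than at D2PM, Myog with a difference of -1.63 and Actc1 with one of -1.13. Of 12 fibroadipogenic progenitor markers 1 was above 0 between the days, with a median of -0.24 and 0 calls (3 lower at an unadjusted p under 0.05). Limma called 0 genes between the days in the other cell type lists, with at most 1 in each direction per list at an unadjusted p under 0.05. The part of other cell types in the late rise was not tested beyond these values.

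Of the 37 lists of pathways and cell types 8 held a late gene, and 13 of the 68 genes were listed. They were Cry2 and Tef (clock), Klf10, Ccl4, Sfrp2, Bmf and Erg and, in 2 lists added after the data were seen, Psmb8, H2-Q5 and Mill2 (antigen presentation) and Rprl2, Rpph1 and Rprl1 (RNA polymerase III transcripts). Lists without any late gene included the NF-kB pathway, heat shock proteins, hypoxia response, Notch pathway and cell cycle. The 68 genes lay on 20 chromosomes, with no more than 8 on any one.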

How the data were processed

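Satellite cell RNA of 7 samples was measured on single-colour arrays. Cells were sorted directly into lysis buffer, and the RNA was amplified with the Ovation Pico kit. Values are log2, normalised by RMA, as deposited by the authors, who had removed non-expressed and invariant probes at a threshold that is not given in the sources used here. Limma is named beside RMA in the submitters' processing notes. The table held 18675 probe sets, with array medians between 6.11 and 6.19. Some genes had identical values on several arrays. Among them were Arhgef3, Tas2r135 and Mylk2, whose old arrays had an SD of 0. The reason for such ties was not tested. The probe sets with 1 gene in the array annotation numbered 14480, each gene was represented by its brightest one, and the 9944 genes with a mean of at least 5.12 (the 25th percentile) were tested. The number of arrays limits the precision.

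The 68 genes were found by the rule given in the report, and Ccl2, Ccl7, Cx3cl1, Ccrl2 and Ms4a4d were left out by name. The members, lists and tests were chosen with earlier results of these data known. The role groups, the motifs and the windows shown were chosen after the values were seen. Group means were fitted with limma 3.58.1 in R 4.3.3 (3 groups, 4 residual degrees of freedom, Benjamini-Hochberg adjustment over all genes tested). The fit was tested on simulated data. Genes described by rule were the 12 with the largest difference between D4PM and D2PM, the 6 with the largest gap between arrays, the 4 with the largest SD at D4PM, up to 4 per list, and the 2 on either side of each threshold. Other members were named by function. Motifs were counted on both strands, and none of the motifs contains another. All 68 genes matched the RefSeq table, and windows and microRNAs were matched by gene identifier on GRCm38.p6.

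The alternatives tried were median centring, another round of quantile normalisation, other filters on level, the mean of the probe sets, other thresholds, leaving out each array, the replicate number as a block, a trended robust prior, array weights, the post-mortem arrays alone and the endothelial mean as a covariate, of which the last was added after the data were seen. Deviations from the group means were uncorrelated between arrays of one number (-0.08 to 0.05), and numbers were not taken to pair arrays.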

Additional observations from a re-analysis of the deposited data

How the results depend on the processing

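The number of late genes moved most with the thresholds. It was 179 with a D4PM minus D2PM of at least 0.3 and 33 with at least 0.5, against 68 at 0.4. A filter at the 50th percentile of level left 35, of which 20 had every D4PM array above all others and limma called 18 higher at D4PM than in old cells. Leaving out 1 array and applying the rule again gave 64 to 115 genes (115 without D4PM replicate 2, 103 without D2PM replicate 2), with 41 to 93 clear of all other arrays (77 without D2PM replicate 2, 93 without D4PM replicate 2 and 68 without D4PM replicate 3) and 10 to 54 called over old cells (12 without old replicate 1, 10 without old replicate 2 and 54 without D4PM replicate 2). The count called higher at D4PM than at D2PM, 2 of 68 in the fit reported, was 1 after a second quantile normalisation, with the 50th percentile filter, with the mean of the probe sets or with the trended robust prior. Array weights gave 3, and the replicate number as a block gave 7, a value with no claim that the numbers pair the arrays. It was 0 to 2 when 1 array was left out (0 without either old array, either D2PM array or D4PM replicate 2, with 32 to 96 at an unadjusted p under 0.05). Limma also called 0 with the post-mortem arrays alone (47 at an unadjusted p under 0.05) and 0 with the endothelial mean as a covariate (42), where 0 were called over old cells as well (15) and the median D4PM minus D2PM of the 68 genes was 0.46. The genes of every setting were chosen on the same group differences, so nothing is read from these counts of calls, adjusted or not. The cause of the shifts between settings was not tested. Without D4PM replicate 2, D4PM minus D2PM was reversed for Ccl4 (-0.25) and Sprr1a (-0.25), and over all arrays left out in turn it ranged from -0.25 to 0.85 for Ccl4 and from -0.25 to 1.23 for Sprr1a. Of 436 values of the 28 genes described by rule under the alternatives, 428 moved by less than the spread between arrays or not at all. Leaving out an old array or changing the filter on level cannot move D4PM minus D2PM, so this count is no measure of stability. The spread is also wide where a single array stands apart. Arrdc3 went from 0.51 to 0.03 without D4PM replicate 2 and still counted as within it. Low signal limits the precision, since dim values are compressed and 27 of the 68 genes lay near the minimum. Without D2PM replicate 1 both thresholds on differences together kept 33 of the 68.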

Other observations

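Probe sets without a single gene name were not part of the choice. Of 531 bright enough probe sets assigned to several genes 5 met both thresholds, with a largest D4PM minus D2PM of 0.55. Of 1757 such probe sets with no gene listed 15 met them, with a largest difference of 0.81. These shares were 0.942% and 0.854%, against 0.704% of named genes.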
